A study of Homo sapiens with 4 samples.

Results

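Molecular chaperones of the cytosol and the mitochondria were compared between cells labelled HepG2 that were given a control siRNA and others given an siRNA against PATZ1. The genes were chosen by symbol: the HSP70 (HSPA), small heat shock protein (HSPB), HSP90, HSPH1, HSPD1 and HSPE1 genes, the subunits of the cytosolic chaperonin (TCP1 and CCT), prefoldin (PFDN), the J-domain proteins (DNAJA, DNAJB and DNAJC) and the BAG proteins. The ER genes HSPA5, DNAJB9, DNAJB11, DNAJC3 and DNAJC10 were left out. The symbols took in 90 of the 20045 genes with a probe of their own on the array, through 143 of 30112 probes. The label of cytosolic and mitochondrial genes is not exact. The symbols also took in genes whose proteins sit in the ER or its membrane, among them DNAJB12, DNAJB14, DNAJC1, DNAJC16, DNAJC18, DNAJC25 and HSPA13. Nuclear members such as DNAJC8 were taken in too.

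HepG2 is a human liver cancer line, and PATZ1 encodes a zinc finger transcription factor. RNA was measured on 4 Illumina HT-12 v4 arrays, 2 of cells with the control siRNA (siCTRL) and 2 of cells with the siRNA against PATZ1 (siPATZ1), all reverse transfected with 60 pmol of siRNA and cultured for 48 h. No label says that replicate arrays stem from different cultures. The p-values then describe only how far these 4 arrays scatter, and that scatter may be technical. Fewer cells and less RNA per cell cannot be told apart in such bulk samples.

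The mean signal of an array was 492 to 555 and 14222 to 15980 probes were detected per array, the higher numbers on the siPATZ1 arrays. None of the 3 PATZ1 probes was detected on any array, with a lowest detection p-value of 0.0649, so the arrays do not check the knockdown. Of the hepatocyte markers, ALB and the epithelial keratins KRT8 and KRT18 were detected on all 4 arrays. ALB was so by 1 of its 2 probes, at a log2 signal of 6.59 to 7.18, and its other probe was detected on no array. AFP, APOA1, APOB, TTR, SERPINA1, FGB and TF, secreted proteins for which HepG2 is known, were detected on no array of either group, so these defining markers of the labelled line are absent from the measured signal. Of the markers of other cells, CD68 was detected on all 4 arrays and COL1A1 on 3, with 1 siPATZ1 array among them. The leukocyte markers PTPRC, CD3E and CD14 and the fibroblast markers COL1A2, PDGFRB and DCN were detected on no array. The same held for every endothelial marker. CD68 had a log2 fold change of -0.33 (adjusted p = 0.131, limma) and COL1A1 of -0.51 (adjusted p = 0.0741). Their part in the results was not tested.

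Chaperones bind proteins that are not yet folded or have lost their fold. HSP70 holds short stretches of a client and tightens its hold as it spends ATP. J-domain proteins bring the clients and start ATP use. BAG proteins and the HSP110 relatives of HSP70 exchange the nucleotide so that the client is released. HSP90 finishes clients such as kinases and steroid receptors, the ring-shaped CCT chaperonin folds actin and tubulin inside its chamber with prefoldin delivering them, and HSP60 with HSP10 does the like in the mitochondrial matrix. Many of these genes are induced by heat through the transcription factor HSF1, and tumour cells often depend on them.

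Few of these genes passed the test. Of the 64 members detected well enough to test, DNAJA2 and DNAJB12 were higher in siPATZ1 cells and none was lower, and the other 62 did not pass. The test was limma on log2 signal, and its p-values were corrected across the 9435 genes tested by the Benjamini-Hochberg method and held to 0.05. The 2 higher members are 3.12% of those tested. Over all genes 7.76% were higher and 6.94% lower. At an unadjusted p under 0.05, 9 members (14.1%) were higher and 5 (7.81%) lower, against 15.8% and 15.3% of all genes, and the methods' t-test passed 0 members after the same correction. A change of 1.4-fold, the threshold the study used, was reached upward by DNAJA2, DNAJB12 and DNAJC8 and downward by no member, against 8.64% and 7.42% of all genes. The count of higher members was 0 to 8 over the other settings tried.

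The chaperone values lay close to 0. The fold change is given throughout as a log2 fold change, the siPATZ1 mean minus the siCTRL mean of log2 signal, so that 1.4-fold is 0.485. It ran from -0.38 (HSPB8) to 0.58 (DNAJC8) over the members and from -1.84 to 2.05 over all genes. Such a range widens with the number of genes. The median absolute log2 fold change was 0.169 over the members and 0.207 over all genes. The median log2 fold change was 0.0606 over the members and -0.000816 over all genes. Median scaling of the arrays in place of quantile normalization moved the median of all genes to 0.087 and that of the members to 0.147. The 95% interval stayed within 1.4-fold in either direction for 31 of the 64 members, or 48.4%, against 40% of all genes. For the rest the interval reached beyond 1.4-fold. In the normalized log2 signal, both siPATZ1 values lay above both siCTRL values for 24 members (37.5%, against 30.1% of all genes) and below them for 15 (23.4%, against 29.9%).

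**Figure D1:**
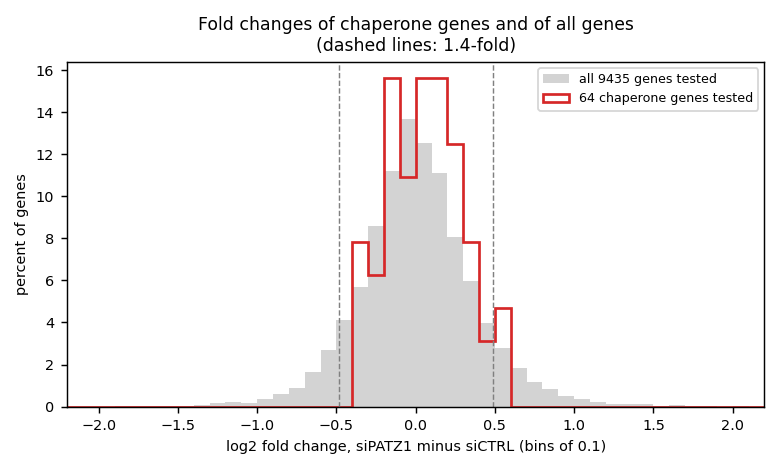
Share of genes, in percent, by log2 fold change of siPATZ1 over siCTRL, in bins of 0.1, for the 64 chaperone genes (red line) and all 9435 genes tested (grey). The dashed lines mark 1.4-fold, which 3 chaperone genes passed upward and 0 downward.

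DNAJA2 encodes a cytosolic J-domain protein that hands unfolded clients to HSP70. With siCTRL its log2 signal was 9.74 and 9.85, and with siPATZ1 10.48 and 10.20. The groups did not overlap, and the siPATZ1 arrays were the more unlike of the groups. The log2 fold change was 0.54 ± 0.141 (SE, n = 2 per group), or 1.46-fold, with an adjusted p of 0.0412 (limma). It was 0.40 to 0.69 when each array was left out in turn, and passed in 1 of those 4 fits, the one without siCTRL replicate 2.

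DNAJB12 is anchored in the ER membrane with its J domain facing the cytosol, where it works with HSPA8 in disposing of misfolded membrane proteins. With siCTRL its log2 signal was 7.66 and 7.50, and with siPATZ1 7.97 and 8.21, so the groups did not overlap. The log2 fold change was 0.51 ± 0.139, 1.42-fold, with an adjusted p of 0.0483 (limma). DNAJB12 has 4 kept probes, and they did not move alike. Another gave 0.48, and the remaining 2 gave 0.02 and 0.06. Leaving out an array gave 0.39 to 0.63 and passed in 1 of 4 fits, the one without siCTRL replicate 1. Without either siPATZ1 array no member passed, and then 2.98% (without replicate 1) and 3.05% (without replicate 2) of all genes were called.

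The other 7 of 9 tested J-domain A and B members did not pass. DNAJA1, also a cytosolic partner of HSP70, read 12.23 and 12.07 on siCTRL and 12.37 and 12.49 on siPATZ1 arrays, a log2 fold change of 0.28 (adjusted p = 0.181). DNAJA3, the mitochondrial member, had 0.18 and DNAJB1, the classical heat-inducible one, 0.11 (adjusted p = 0.358 and 0.584). DNAJB14, like DNAJB12 a protein of the ER membrane, had 0.21 (adjusted p = 0.374). Its other kept probe was detected on the 2 siPATZ1 arrays only, and read 5.49 and 6.06 with siCTRL against 6.43 and 6.29. The 0.59 of that probe (adjusted p = 0.0929 with each probe fitted on its own) thus rests on siCTRL readings below detection. DNAJB4 and DNAJB6 had 0.10 and 0.08. DNAJB2 was the only one below 0, at -0.20 (adjusted p = 0.306).

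HSP70 stands at the centre of the network. HSPA8, the constitutive cytosolic HSP70, read 12.83 and 13.00 with siCTRL and 13.39 and 13.29 with siPATZ1. The groups did not overlap, but the log2 fold change of 0.42 (95% interval 0.13 to 0.72) had an adjusted p of 0.0645 and did not pass. A second HSPA8 probe read 13.14 and 13.07 against 13.11 and 13.11, a log2 fold change of 0.0058, so the probes of this gene differ. That second probe was the brighter with siCTRL, at a mean of 13.11 against 12.92. The first is the brightest over the 4 arrays only through its siPATZ1 values. HSPA1B, the stress-inducible HSP70, had 13.99 and 13.85 against 13.84 and 13.72, a log2 fold change of -0.14 with a 95% interval of -0.43 to 0.15. Its near-identical copy HSPA1A has a probe of its own, which was detected on no array, and the signal of the copies cannot be divided with certainty.

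HSPA4L and HSPA4 are HSP110 relatives that exchange nucleotide for HSP70. HSPA4L read 8.03 and 7.99 with siCTRL and 8.56 and 8.33 with siPATZ1, a log2 fold change of 0.44 (adjusted p = 0.0646). HSPA4 had 0.22, with a siPATZ1 array of 9.64 and another of 9.16 against 9.17 and 9.18 in siCTRL. The groups of HSPA4 overlapped on this probe, and those of HSPA4L did not. A second kept HSPA4 probe gave -0.07, so the probes of HSPA4 differ in sign. HSPA12A had 0.34 (adjusted p = 0.127). HSPA14, a ribosome-bound member, had -0.17 (adjusted p = 0.384). No HSP70 member passed out of 6 tested.

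Neither HSP90 gene nor HSPH1 passed. HSP90AA1, the inducible cytosolic HSP90, read 14.08 and 13.89 against 14.20 and 14.05, and HSP90AB1, the constitutive one, 11.40 and 11.56 against 11.63 and 11.69. Their log2 fold changes were 0.14 and 0.18 (adjusted p = 0.526 and 0.371). HSPH1, the HSP110 of the cytosol, read 11.20 and 11.21 against 11.10 and 11.12, a log2 fold change of -0.10 (95% interval -0.37 to 0.18). For all 3 genes the interval of the brightest probe lay within 1.4-fold. The other kept probes of HSP90AA1 gave 0.317 (SE 0.172) and 0.318 (SE 0.219) with each probe fitted on its own. No interval was computed for those probes.

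Of the small heat shock proteins, which keep damaged proteins from clumping, HSPB1 and HSPB8 were tested and the other 5 were not. HSPB1 (HSP27) had siCTRL values of 12.34 and 12.77 and siPATZ1 values of 12.77 and 12.87, a log2 fold change of 0.26 (adjusted p = 0.31). HSPB8, which joins BAG3 in marking clients for autophagy, had 9.75 and 10.11 against 9.62 and 9.48, a log2 fold change of -0.38 (95% interval -0.74 to -0.02, adjusted p = 0.143). It was the lowest member. Its arrays did not overlap, and siCTRL replicate 2 was the highest of the 4.

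In the mitochondria, HSPA9 is the HSP70 that pulls proteins through the inner membrane, and HSPD1 (HSP60) and HSPE1 (HSP10) form the folding chamber and its lid. HSPA9 read 11.58 and 11.69 with siCTRL and 12.08 and 11.97 with siPATZ1, a log2 fold change of 0.39 (95% interval 0.10 to 0.68, adjusted p = 0.0738). HSPD1 read 13.27 and 13.23 against 13.53 and 13.48, a log2 fold change of 0.25 (adjusted p = 0.191). Its 3 kept probes gave 0.25 to 0.52, and the highest of them had an adjusted p of 0.0465 when each of 15090 probes was fitted on its own. In that fit 12.4% of all probes passed, and of the 90 member probes 2 did, this one and the DNAJB12 probe at 0.48 (adjusted p = 0.0493). DNAJA2 (adjusted p = 0.0521) and the brightest DNAJB12 probe (adjusted p = 0.0603) did not pass there. HSPE1 read 12.09 and 12.54 against 12.05 and 12.24, a log2 fold change of -0.17 (95% interval -0.57 to 0.23). The HSPD1 and HSPE1 genes lie head to head on chromosome 2 and RefSeq places the HSPE1 start site 105 bases from one HSPD1 start site and 539 bases from another. Their values here differ in sign, their intervals overlap, and the difference between them was not tested.

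The 7 mitochondrial J-domain proteins, DNAJA3 and DNAJC4, DNAJC11, DNAJC15, DNAJC19, DNAJC28 and DNAJC30, had log2 fold changes of -0.24 to 0.36, the lowest from DNAJC28. None passed and the lowest adjusted p was 0.178, for DNAJC11, which is bound to the organiser of the cristae. DNAJC11 gave the highest value and was kept through its siPATZ1 arrays, since only 1 siCTRL array detected it. It read 6.01 and 6.43 with siCTRL and 6.57 and 6.59 with siPATZ1, near the detection limit.

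The 21 tested members of the DNAJC class, a mixed group defined by a J domain and little else, also did not pass. DNAJC8, a spliceosome-associated nuclear protein, had the largest change of all members, 0.58 ± 0.203, with an adjusted p of 0.0941 (limma). Its siCTRL arrays were 11.68 and 12.33 and its siPATZ1 arrays 12.62 and 12.56, so the siCTRL arrays differed by more than the rest. DNAJC17, also tied to splicing, had 0.30 (adjusted p = 0.158). DNAJC22 had -0.33 (adjusted p = 0.114), from 7.27 and 7.14 to 6.82 and 6.92. DNAJC7, which carries TPR domains that hold HSP70 and HSP90, had -0.32 (adjusted p = 0.136), and DNAJC24, which serves the synthesis of diphthamide on elongation factor 2, -0.31 (adjusted p = 0.16). DNAJC28 had -0.24 and a 95% interval of -0.55 to 0.08, from 1 of its 4 probes. The other 3 were detected on no array, so whether the first measures DNAJC28 is uncertain. Of the class, 11 values were above 0 and 10 below.

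Of the BAG proteins, which exchange nucleotide for HSP70, 5 were tested and none passed. BAG5 had -0.32 (adjusted p = 0.134) and a second probe of the gene 0.22. BAG4 and BAG3 had -0.14 and -0.05. BAG6, which guards membrane proteins on their way to the ER, had 0.13. BAG2 had siCTRL arrays of 7.66 and 8.64, the widest gap of any tested member, and its value of 0.20 had a 95% interval of -0.44 to 0.84.

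**Figure D2:**
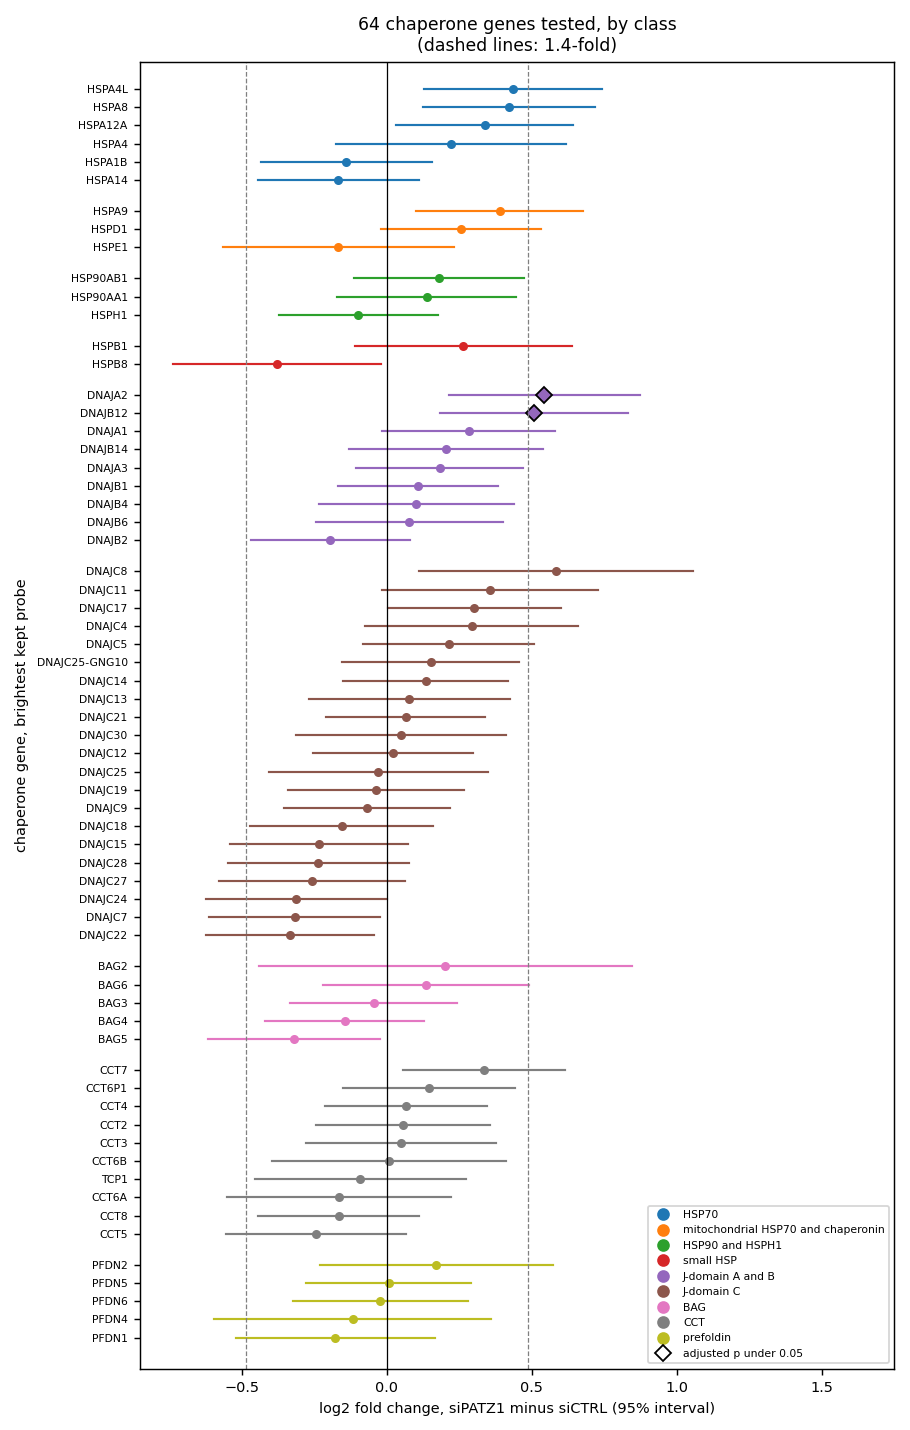
The log2 fold change of each of the 64 chaperone genes tested, siPATZ1 minus siCTRL, by class, with bars for the 95% interval. The diamonds, DNAJA2 and DNAJB12, passed an adjusted p of 0.05, and the dashed lines are 1.4-fold.

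The cytosolic chaperonin is built from 8 different subunits in each ring, and all 8 were tested. None passed, and their log2 fold changes ran from -0.24 for CCT5 to 0.33 for CCT7, with 4 above 0 and 4 below. CCT7 read 12.93 and 12.86 with siCTRL and 13.20 and 13.25 with siPATZ1 (adjusted p = 0.101), and its other 2 probes gave 0.06 and 0.14. CCT5 read 8.63 and 8.82 against 8.56 and 8.40 (adjusted p = 0.259). TCP1 had -0.09, CCT2 0.06, CCT3 0.05, CCT4 0.07 and CCT8 -0.17. For 5 of the 8 subunits the 95% interval lay within 1.4-fold.

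CCT6A was the subunit whose probes disagreed most. The brighter probe read 10.71 and 10.37 against 10.54 and 10.21, a log2 fold change of -0.16, and the other 9.13 and 9.55 against 9.89 and 9.98, a log2 fold change of 0.59 (adjusted p = 0.0578 with each probe fitted on its own). The pseudogene CCT6P1, whose sequence resembles CCT6A, had 0.15, and its signal cannot be fully divided from that of CCT6A. Across the 18 members with several kept probes the median span of log2 fold change was 0.218, the 0.755 of CCT6A was the largest, and 6 members had probes of both signs. No member had probes past 1.4-fold in opposite directions.

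**Figure D3:**
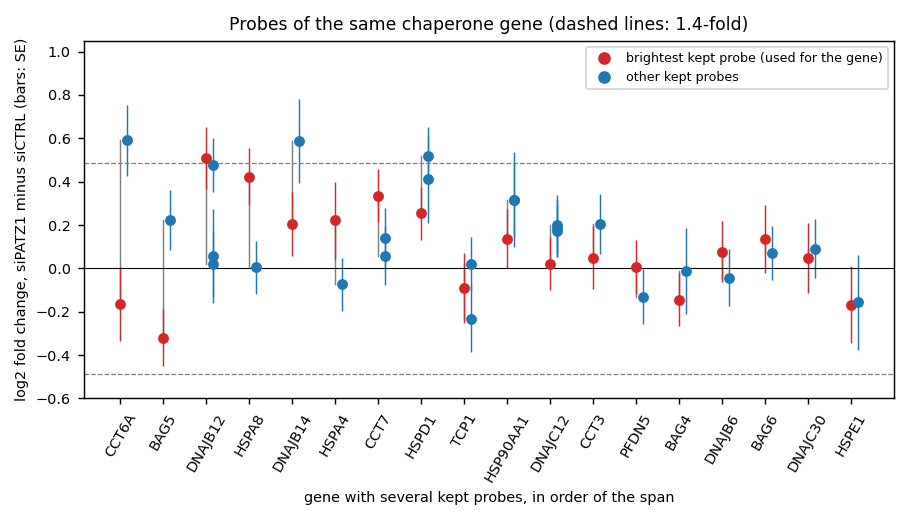
The log2 fold change with its SE of each kept probe of the 18 chaperone genes with several, the brightest in red and the others in blue. CCT6A spans 0.755, and DNAJB12 and HSPA8 have probes near 0 beside their brightest one.

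Prefoldin is a jellyfish-shaped complex of 6 subunits that passes actin and tubulin to CCT. Its subunits PFDN1, PFDN2, PFDN4, PFDN5 and PFDN6 had log2 fold changes of -0.18, 0.17, -0.12, 0.0066 and -0.02, and none passed. The subunit VBP1, which the symbols did not take in, read 11.70 and 11.62 against 11.28 and 11.26, a log2 fold change of -0.39 (adjusted p = 0.0686). Its second kept probe read 11.18 and 11.40 against 11.50 and 11.33, a log2 fold change of 0.13, so the probes of VBP1 differ in sign.

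Of the cofactors of CCT, 2 phosducin-like proteins passed the test, in opposite directions. PDCL, which helps CCT assemble G protein beta subunits, fell: its log2 signal was 7.93 and 8.18 with siCTRL and 6.79 and 7.04 with siPATZ1, a log2 fold change of -1.14 ± 0.148 (2.2-fold lower, adjusted p = 0.00518, limma). PDCL3, which works with CCT on other clients, rose: 9.04 and 9.22 against 9.94 and 9.97, a log2 fold change of 0.83 ± 0.127 (1.77-fold, adjusted p = 0.00855). A second PDCL3 probe read 8.99 and 9.18 against 9.47 and 9.63, a log2 fold change of 0.47, which did not pass (adjusted p = 0.0654 with each probe fitted on its own). TXNDC9, another relative, had -0.08. The call of PDCL held without each array. That of PDCL3 was lost without either siPATZ1 array, where most calls over all genes were lost too.

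**Figure D4:**
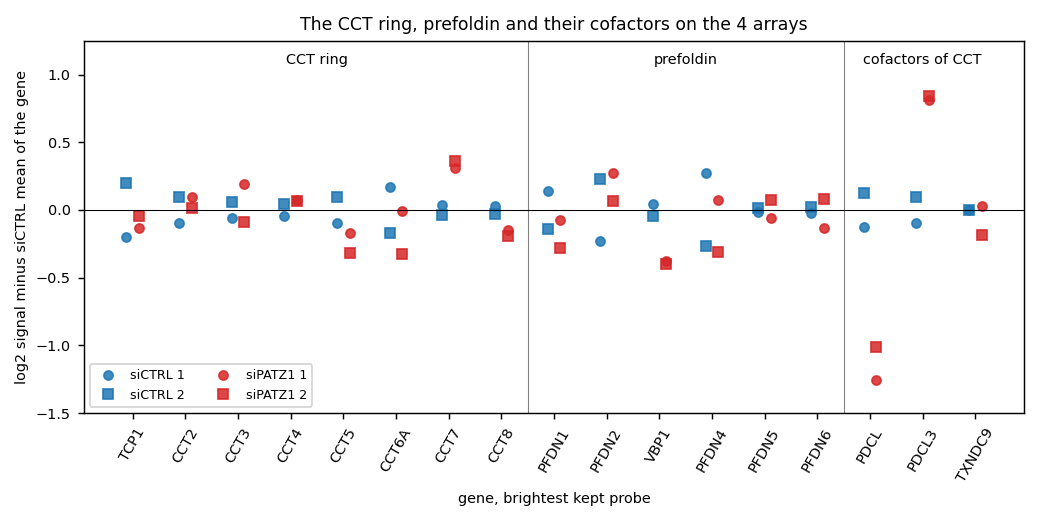
Log2 signal of each of the 4 arrays relative to the siCTRL mean of the gene, for the 8 CCT subunits, the 6 prefoldin subunits and 3 cofactors of CCT, with siCTRL in blue and siPATZ1 in red. The 8 CCT subunits stay near the siCTRL mean, and PDCL lies below and PDCL3 above all other genes shown.

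PDCL and PDCL3 belong to a list of 52 co-chaperones, heat shock regulators and mitochondrial partners outside the symbol rule, of which 43 were tested. In that list 7 rose and 1 fell, 18.6%, beside 14.7% of all genes. The others that rose were LONP1, the protease of the mitochondrial matrix (0.88, adjusted p = 0.00825), NUDC, an HSP90 co-chaperone that also serves dynein (0.84, adjusted p = 0.0088), AFG3L2, a subunit of the protease in the inner mitochondrial membrane (0.61, adjusted p = 0.0187), PPID, an HSP90-bound cyclophilin (0.55, adjusted p = 0.0292), SGTA, which works with BAG6 (0.52, adjusted p = 0.0328), and SIL1, a nucleotide exchanger in the ER (0.47, adjusted p = 0.0374). For LONP1 the siCTRL arrays read 8.78 and 8.56 and the siPATZ1 arrays 9.59 and 9.51. Other matrix partners did not pass, with 0.0029 for TRAP1, the HSP90 of the matrix, -0.02 for GRPEL1, which exchanges nucleotide for HSPA9, and -0.18 for the protease CLPP. FKBP4, a steroid receptor co-chaperone, had 0.45 (adjusted p = 0.0746). Without siPATZ1 replicate 1 the upward calls of the list were all lost, and without siPATZ1 replicate 2 most were. Most calls over all genes were lost in these fits too. With each array left out in turn, the log2 fold change was 0.77 to 0.99 for LONP1 and 0.74 to 0.95 for NUDC.

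HSF1, the factor that turns on heat-inducible chaperones, was detected on no array, with a lowest detection p-value of 0.0247. From a list of 28 heat-inducible genes, 22 were tested and 0 passed (limma). At an unadjusted p under 0.05, 3 were higher (HSPA4L, FKBP4, and HSPA8 by the first of its probes) and 1 lower (HSPB8). Of all genes 14.7% passed in either direction, and 15.8% were higher and 15.3% lower at the unadjusted p. The median log2 fold change of the list was 0.122. Many of these genes are members, so the list is not separate evidence. The ER genes left out by the rule had log2 fold changes of -0.17 for HSPA5, -0.06 for DNAJB11 and -0.03 for DNAJB9. DNAJC3 was detected on both siPATZ1 arrays and on neither siCTRL array, where it has only a bound. It was at least 1.04-fold higher with siPATZ1, taking as the level on each siCTRL array the higher of the lowest signal among detected probes and its own signal, and did not pass (adjusted p = 0.126). DNAJC10, a reductase of the ER, was higher at 0.47 (adjusted p = 0.0499), close to the threshold. Its second probe gave 0.24 (adjusted p = 0.459 with each probe fitted on its own, where the first had 0.062), and it passed in 8 of 17 alternatives and in 1 of 4 fits without an array, the one without siCTRL replicate 1.

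HSF1 binds heat shock elements, runs of GAA units in alternating orientation. The promoters of members (RefSeq, GRCh38.p14, 300 bases from 250 before to 50 after the start site) were searched for GAANNTTC on both strands, which is its own reverse complement, and for the longer runs GAANNTTCNNGAA and TTCNNGAANNTTC, which contain it. GAANNTTC was in the promoters of 27.3% of the 77 members with an entry, against 8.21% of all 27305 genes with one. A longer run was in 9.09% of the members and 0.608% of all genes, and in 6 tested members: HSPA8, HSPD1, HSP90AB1, HSP90AA1, DNAJA1 and DNAJB6. By the brightest kept probe, their log2 fold changes ran from 0.08 to 0.42 with none past the test. Other kept probes gave 0.0058 for HSPA8 and -0.04 for DNAJB6. For HSP90AA1 they gave 0.317 and 0.318, and for HSPD1 0.41 and 0.52. The 2 members that passed had no GAANNTTC in their windows. Below are the 250 bases before the start site of HSPA8, HSPD1 and HSP90AB1, shown because they hold the longer runs, and of DNAJA2, shown because it passed and holds none. The runs are in capitals, and a match of letters is no proof of a bound site. HSPD1 has 2 entries and HSP90AB1 3, and 1 of each is shown, for HSPD1 that of the start site 539 bases from HSPE1.
HSPA8 (chr11:123062137-123062386, - strand): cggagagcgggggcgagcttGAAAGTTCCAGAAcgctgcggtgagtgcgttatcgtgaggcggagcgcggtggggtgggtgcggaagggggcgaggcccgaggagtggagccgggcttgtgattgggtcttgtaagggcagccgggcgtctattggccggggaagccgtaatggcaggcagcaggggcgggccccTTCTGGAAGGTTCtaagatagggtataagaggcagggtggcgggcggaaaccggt
HSPD1 (chr2:197499841-197500090, - strand): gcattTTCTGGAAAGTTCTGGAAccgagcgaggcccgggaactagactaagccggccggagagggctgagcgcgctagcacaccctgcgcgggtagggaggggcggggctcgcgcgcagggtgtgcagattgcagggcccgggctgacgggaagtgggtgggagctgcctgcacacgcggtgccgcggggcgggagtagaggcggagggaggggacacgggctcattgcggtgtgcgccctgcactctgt
HSP90AB1 (chr6:44247693-44247942, + strand): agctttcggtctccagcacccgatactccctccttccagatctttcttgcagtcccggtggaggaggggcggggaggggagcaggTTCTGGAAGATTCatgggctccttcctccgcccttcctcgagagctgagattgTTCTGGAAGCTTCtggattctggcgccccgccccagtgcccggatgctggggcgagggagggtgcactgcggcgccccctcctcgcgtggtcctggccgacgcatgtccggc
DNAJA2 (chr16:46973675-46973924, - strand): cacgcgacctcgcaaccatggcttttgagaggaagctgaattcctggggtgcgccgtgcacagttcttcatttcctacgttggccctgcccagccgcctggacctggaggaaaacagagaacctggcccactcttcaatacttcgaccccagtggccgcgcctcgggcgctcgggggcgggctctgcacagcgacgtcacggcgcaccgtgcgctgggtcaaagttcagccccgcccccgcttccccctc

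The remaining 26 members were not tested. Of these, 23 had no probe detected on any array and 3 had a probe detected on 1. They include the testis HSP70 genes HSPA2 and HSPA1L, the strictly inducible HSPA6, the small heat shock proteins HSPB2, HSPB3, HSPB6, HSPB7 and HSPB9 of muscle and testis, the testis J-domain genes DNAJB7, DNAJB8 and DNAJB13, and BAG1. No tested member was detected in 1 group and undetected on both arrays of the other. Of the untested members, DNAJC5G was detected on 1 siCTRL array only, and DNAJB5 and DNAJC2 each on 1 siPATZ1 array only. Testing reached 71.1% of the members against 47.1% of all genes, and 63 of the 64 tested members were detected on all 4 arrays.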

How the data were processed

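The authors deposited probe intensity on a linear scale for 47323 probes, with a detection p-value beside each that sets it against negative control probes, and a second intensity table scaled to a common mean. GenomeStudio is named in the submitters' processing notes, and its version and the background correction are not given in the sources used here. The unscaled intensities were background corrected, quantile normalized and taken to log2 with neqc (offset 16) in limma 3.58.1 and R 4.3.3. Probes were named from the platform annotation. Probes with a detection p-value below 0.01 on each array of at least 1 group were kept, and a gene took its brightest kept probe, leaving 9435 genes. Groups were fitted with lmFit and eBayes (2 residual and 5.73 prior degrees of freedom). The number of arrays limits the precision.

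Named were the members past an adjusted p of 0.05, and in each class the 4 with the smallest p and the 2 brightest, and from the 2 other lists those past it and the 4 with the smallest p. HSF1 and the 5 ER genes were named too. Further genes were named after their values were seen. Members and lists were chosen with earlier results of these data known. The fit was tested on simulated data. Alternatives changed the background, normalization, input table, detection filter, probe rule, model or arrays. Fitting each probe on its own was chosen after seeing the data. Promoters were matched to RefSeq by symbol for 77 of 90 members. HSF2 was not analysed here.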

Additional observations from a re-analysis of the deposited data

How the results depend on the processing

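Over 17 alternatives, 1043 of 1087 member values kept their call and direction or had no call in either setting, 16 lost a call, 27 gained one and 1 reversed. Members higher (2 in the main setting) numbered 7 with no background correction, 5 with an offset of 50, 8 on the deposited scaled intensities, 7 with an intensity trend in eBayes, 1 with the mean of kept probes, and 0 with a detection p-value under 0.05, with no detection filter, with the replicate number as a block and by the methods' t-test, which passed 1 gene of 9435. The share of all genes called was 14.7% in the main setting, 18.6% with no background correction, 17.5% with the offset of 50, 18.8% on the scaled intensities, 18.2% with the trend, 15.4% with the mean of probes, 9.77% with a detection p-value under 0.05, 1.68% with no filter and 11.3% with the block. That share was largest without siCTRL replicate 2. With either siCTRL array left out, the share of all genes called exceeded the share of members called. The members gained in the settings with 5, 7 or 8 were HSPA8, HSPA4L, HSPA9, HSPA12A, CCT7 and DNAJC8. Leaving out an array gave 0 to 6, with 0 without either siPATZ1 array, 6 without siCTRL replicate 2 (BAG2, DNAJC8, DNAJC11, HSPA8 and HSPB1 beside DNAJA2), and 2 without siCTRL replicate 1 (DNAJB12 and DNAJC4). Members lower (0) numbered 1 with a detection p-value under 0.05 (DNAJC5G), and 0 to 1 without an array (HSPB8, without siCTRL replicate 1). At 1.4-fold, members higher (3) were 2 to 5 without an array, the 5 without siCTRL replicate 2, where 982 of all 9435 genes were higher. Members lower (0) were 1 with a detection p-value under 0.05, 1 with no filter and 0 to 1 without an array, the 1 without siCTRL replicate 1. Of all genes, 852 of 10882, 925 of 20045 and 717 of 9435 were lower in these 3 settings.

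Co-chaperones higher (7) numbered 11 with median scaling (16.9% of all genes called in either direction), 3 with no filter (1.68%) and 0 by the t-test (0.0106%). Those lower (1) numbered 3 with no background correction, 2 with an offset of 50, 3 with a trend, 0 by the t-test, and 1 to 2 without an array, the 2 without siCTRL replicate 2. The reversed values were those of the second brightest probe, 0.59 for CCT6A (adjusted p = 0.0482) and 0.51 for UNC45A (adjusted p = 0.0343). The causes were not tested. Over all genes the share of higher genes among those called was 52.8% (732 against 655), 71.7% with median scaling (1145 against 451), 63.8% on the scaled intensities (1130 against 640) and 46.9% (606 against 685) for genes detected on all 4 arrays, where more were lower than higher. The replicate numbers of the labels only name the arrays. The deviations of same-numbered arrays correlated at -0.05 over genes, and the replicate block called 582 genes higher and 487 lower, with 0 members among them.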
